A study of Mus musculus with 14 samples.

Results

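The genes described here are 9 enzymes and chaperones that modify, fold or cross-link collagen: P4ha1, P4ha2, P4hb, Plod1, Plod2, Plod3, Leprel1, Serpinh1 and Lox. They were chosen by symbol, with earlier results of these data known, and each symbol had 1 entry among the 23174 gene entries of the deposited table. The series measured mouse cells by polyA RNA-seq in 14 libraries. Its title calls the zinc finger protein Zfp281 a barrier to the passage from embryonic stem cells (ESCs) to extraembryonic endoderm (XEN) cells. Lines of strain background 129S1/SVImJ with 1 library at each of 3 stages were wild type 3WT (cell line 3+/+), Zfp281KO lines 3.34Null (3.34-/-) and 2.6Null (given as 2.26-/- in its cell line field), and 3.34Null carrying a Zfp281 rescue. Below they are written WT3, KO3.34 and KO2.6, and Rescue3.34. The promoter of the rescue construct and the extent of the knockout deletions are not given in the labels. Stage ESC is passage 0 in serum and LIF without feeders. Stage cXENp1 is passage 1, after 48 hours in XEN medium with 0.01 µM all-trans retinoic acid and 10 ng/mL activin A. For stage cXENp3, cells were at passage 3 on gelatin, after growth on iMEF feeders, which are fibroblasts, at passage 2. The labels give cXENp3 the same 48 hours with 0.01 µM retinoic acid and 10 ng/mL activin A as cXENp1. XENB1 (strain background 129S1) and XEN5 (129S1/SVImJ) are established wild-type XEN lines with 1 library each. In what follows the null lines are KO3.34 and KO2.6, and the present lines are WT3 and Rescue3.34.

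Collagen chains are modified as they enter the endoplasmic reticulum (ER). Prolyl 4-hydroxylases and lysyl hydroxylases, which need iron, 2-oxoglutarate and ascorbate, hydroxylate proline and lysine residues, the triple helix then closes, and the chaperone Hsp47 (Serpinh1) holds it until it has left for the Golgi. Outside the cell, the copper enzyme lysyl oxidase (Lox) starts the cross-links between finished molecules. Parietal endoderm, one of the lineages that XEN cells can resemble, is known for secreting a thick basement membrane of collagen IV and laminin.

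Zfp281 stood at 25.1 to 38.6 FPKM in the 6 libraries of the present lines, at 1.29 to 3.96 in the libraries of KO3.34 and at 0 to 0.559 in those of KO2.6. FPKM is a level scaled to transcript length and library size. The sum of 10 XEN markers separated the stages and lines: it was 944 and 1171 FPKM in the null lines at cXENp3, 1034 and 1424 in the XEN lines, and 6.28 and 14.1 in the present lines at cXENp3. The library of KO2.6 at cXENp1 stood apart from the other lines of that stage, with a XEN marker sum of 487 FPKM against 38.9 to 49.4, and KO2.6 ESCs had 49.4 against 1.76 to 6.62. The 8 pluripotency markers summed to 2738 to 3672 FPKM in ESCs, 72.2 to 125 at cXENp1, 4000.1 in WT3 and 2275 in Rescue3.34 at cXENp3, and 105 and 458 in the null lines at cXENp3. The description of a library starts with JH for ESCs of every line but KO2.6 and with XH for the other 11 libraries, so this prefix goes with the ESC stage in those 3 lines.

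Promoters are shown because the genes moved together. RefSeq (build GRCm38.p6) gave a window of 300 bases, from 250 before to 50 after the start site, for 6 of the 9 genes. Plod2 and Leprel1 had no match. The search for the 9 genes left out windows on the chromosome of Lox, so none could be found for Lox. The counts over all windows below include that chromosome. The 4 printed were chosen after their values were seen: at cXENp3, P4ha2 and Serpinh1 differed most between null and present lines, and P4hb and Plod1 least among the 8 genes called there. No relation between motif and difference was tested. Capitals mark ACGTG or its reverse complement CACGT, a core found in sites of the unfolded protein response and of hypoxia-inducible factors, searched on both strands.
P4ha2 (chr11:54100674-54100973, plus strand): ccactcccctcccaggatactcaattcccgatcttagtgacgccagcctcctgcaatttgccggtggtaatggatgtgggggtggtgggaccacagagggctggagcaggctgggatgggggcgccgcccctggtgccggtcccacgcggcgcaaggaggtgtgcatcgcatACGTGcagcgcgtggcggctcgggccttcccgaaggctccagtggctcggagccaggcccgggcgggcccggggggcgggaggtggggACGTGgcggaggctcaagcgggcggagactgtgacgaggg
P4hb (chr11:120573204-120573503, minus strand): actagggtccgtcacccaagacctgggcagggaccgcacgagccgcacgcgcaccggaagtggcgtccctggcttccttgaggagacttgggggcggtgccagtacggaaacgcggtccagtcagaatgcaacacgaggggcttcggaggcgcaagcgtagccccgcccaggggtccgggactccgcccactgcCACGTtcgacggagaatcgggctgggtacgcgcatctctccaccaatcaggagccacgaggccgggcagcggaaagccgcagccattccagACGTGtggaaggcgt
Serpinh1 (chr7:99353190-99353489, minus strand): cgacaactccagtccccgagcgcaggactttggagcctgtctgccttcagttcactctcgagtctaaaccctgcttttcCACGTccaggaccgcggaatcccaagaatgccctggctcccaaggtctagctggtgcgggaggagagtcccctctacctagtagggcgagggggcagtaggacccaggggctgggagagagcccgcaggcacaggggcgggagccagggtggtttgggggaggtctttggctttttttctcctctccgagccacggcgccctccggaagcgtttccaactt
Plod1 (chr4:147936727-147937026, minus strand): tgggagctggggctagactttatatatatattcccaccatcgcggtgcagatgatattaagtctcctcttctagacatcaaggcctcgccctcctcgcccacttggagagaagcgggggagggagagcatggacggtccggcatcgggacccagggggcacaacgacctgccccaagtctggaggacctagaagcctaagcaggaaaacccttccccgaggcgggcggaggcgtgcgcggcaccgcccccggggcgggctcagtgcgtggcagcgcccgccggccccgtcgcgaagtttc
ACGTG was found in 5 of the 6 windows (2 matches each in P4ha2 and P4hb, 1 each in P4ha1, Plod3 and Serpinh1) and in 19.6% of 32851 promoter windows of the same length. At least 2 matches were found in 8.21% of those windows. The windows of the 6 genes were 53.3% to 70.3% G and C, against a median of 52.7% over all windows, and the share of windows holding the motif at matched composition was not computed. GGGCGG, the GC box, was found in 5 of 6 windows and in 35.7% of all. CCACG, which overlaps ACGTG wherever the letters run CCACGT, was also found in 5 of 6 windows and in 32.8% of all. The full ER stress element, CCAAT and CCACG with 9 bases between them, was found in 0 of 6 windows and in 0.119% of all. A match describes these letters only.

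All 9 genes were expressed far more in XEN lines than in ESCs, and 8 of the 9 were far higher in null than in present lines at cXENp3. Summed over the 9 genes, the level was 264 to 437 FPKM in the ESC libraries, 475 to 1240 at cXENp1, 422 and 788 in WT3 and Rescue3.34 at cXENp3, 6812 and 7973 in KO2.6 and KO3.34 at cXENp3, and 5162 and 6978 in XENB1 and XEN5. As a share of all FPKM in a library, the 9 genes took 0.0368% to 0.0645% in ESCs and 1.32% and 1.42% in the null lines at cXENp3. These are bulk samples, in which a change in the number of cells of a type and a change in RNA per cell cannot be told apart.

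**Figure D1:**
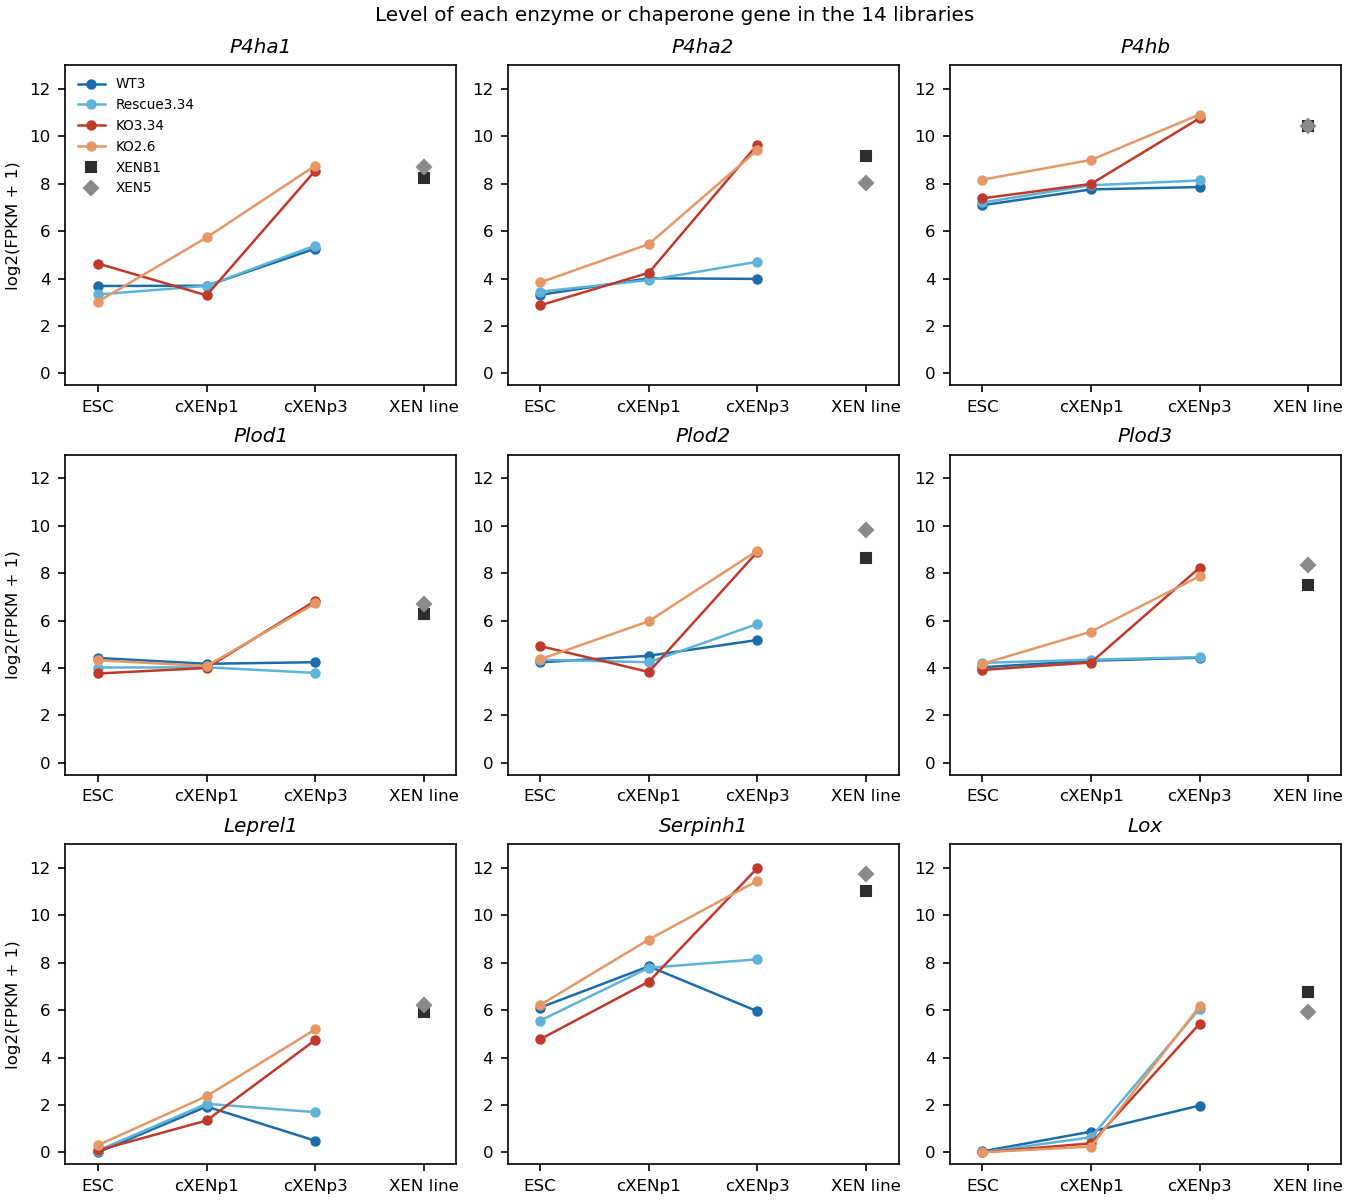
Level of each gene as log2(FPKM + 1) on the vertical axis against stage on the horizontal axis. Each point is 1 library, lines join the stages of 1 cell line, and squares and diamonds are the established XEN lines. At cXENp3 the red and orange null lines sit at or near the XEN lines and the blue present lines lie below both for every gene but Lox, which is high in Rescue3.34 too.

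The alpha subunits of prolyl 4-hydroxylase, P4ha1 and P4ha2, carry the active site. In ESCs, P4ha1 (chromosome 10, 58786044 to 58836052, mm9) had 11.9 FPKM in WT3, 9.03 in Rescue3.34, 23.8 in the KO3.34 line and 7.14 in KO2.6. At cXENp1 it had 12, 11.9, 8.78 and 52.2 FPKM in the same order, and at cXENp3 it had 37.3, 41.0, 374 and 434, beside 417 in XEN5 and 299 in XENB1. KO2.6 was the high library at cXENp1 and KO3.34 the low one, and at cXENp3 both null lines were above both present lines. P4ha2 (chromosome 11, 53914426 to 53945169) had 8.93, 9.89, 6.31 and 13.3 FPKM as ESCs, again in the order WT3, Rescue3.34, KO3.34 and KO2.6. It had 15.1, 14.3, 18 and 42.8 FPKM at cXENp1 and 14.8, 25.2, 804 and 684 at cXENp3, and 264 in XEN5 and 570.1 in XENB1. Both null lines at cXENp3 were above both XEN lines for this gene, as they were for P4hb and Plod1.

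P4hb, the beta subunit of the same enzyme and a protein disulfide isomerase in its own right, was the most abundant of the 9 in every ESC library. P4hb (chromosome 11, 120421618 to 120434250) had 136, 147, 166 and 287 FPKM in ESCs, in that same order, and 216, 244, 254 and 513 at cXENp1. At cXENp3 it had 231, 281, 1742 and 1939 FPKM, and 1367 in XEN5 and 1403 in XENB1. From ESC to cXENp3, P4hb was 10.5-fold higher in KO3.34 and 6.74-fold in KO2.6, against 15.7-fold and 60.7-fold for P4ha1. In WT3 the factor for P4hb, 1.71, was close to the 1.66 of P4ha2. The ratio of P4hb to the sum of P4ha1 and P4ha2, formed after the values had been seen and not tested, was 5.51 to 14.1 in ESCs, 5.40 to 9.49 at cXENp1 and 4.24 and 4.44 in the present lines at cXENp3. It was 1.48 and 1.73 in the null lines at cXENp3 and 1.61 and 2.01 in the XEN lines, below all 10 other libraries. P4ha1 took 31.7% and 38.8% of the alpha sum in the null lines at cXENp3 and 62.0% and 71.6% in the present lines, while the XEN lines themselves spanned 34.4% to 61.2%.

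Leprel1 (P3h2), a prolyl 3-hydroxylase, started near 0. Leprel1 (chromosome 16, 25960409 to 26105870) was listed at 0 in WT3 ESCs and had 0.0513, 0.0596 and 0.234 FPKM in Rescue3.34, KO3.34 and KO2.6 ESCs. At cXENp1 it had 2.82, 3.13, 1.54 and 4.17 FPKM in the order WT3, Rescue3.34, KO3.34 and KO2.6, above every ESC library. At cXENp3 the present lines had 0.406 and 2.24 FPKM and the null lines 25.7 and 35.5, below the 73.5 of XEN5 and the 59.5 of XENB1. Leprel1 is the only one of the 9 for which both null lines stayed below both XEN lines at cXENp3.

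The lysyl hydroxylases are Plod1, Plod2 and Plod3: Plod2 acts on the telopeptides and so prepares a type of cross-link, and Plod3 also adds sugars to hydroxylysine. Plod1 (chromosome 4, 147283862 to 147310885) kept to 12.6 to 20.5 FPKM in all 10 libraries outside the XEN lines and the null lines at cXENp3, and had 105 and 113 in the null lines at cXENp3, 103 in XEN5 and 75.8 in XENB1. KO2.6 was the highest line at cXENp1 for every gene of the 9 except Plod1, at 16 FPKM against 15 to 17.1 in the other lines, and Lox. Plod3 (chromosome 5, 137458071 to 137472516) had 14.1 to 17.6 FPKM in ESCs, 17.8 to 19.4 in the other 3 lines at cXENp1 and 45.4 in KO2.6. At cXENp3 Plod3 had 20.7 and 21.0 FPKM in the present lines and 301 and 234 in KO3.34 and KO2.6, and the XEN lines had 325 and 181.

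Plod2 (chromosome 9, 92433639 to 92503265) had 17.9 to 29.4 FPKM in ESCs, with KO3.34 highest. At cXENp1 it had 21.9 FPKM in WT3, 18 in Rescue3.34, 13.3 in the KO3.34 line and 62.0 in KO2.6, and at cXENp3 35.3, 57.1, 478 and 496. XEN5 had 897 and XENB1 401 FPKM, a 2.24-fold gap between them. Of the summed Plod level, Plod2 took 33.3% to 52.3% in ESCs and 60.9% and 67.7% in the XEN lines, and Plod1 took 22.5% to 38.1% and 7.77% and 11.5%. In the null lines at cXENp3, Plod1 took 12.6% in KO2.6 and 12.7% in KO3.34, and Plod2 59.4% and 53.6%, which is below both XEN lines and, in KO3.34, close to the 52.3% of its own ESCs. Plod1 was at 12.9% in KO2.6 at cXENp1 already. In Rescue3.34 at cXENp3, Plod1 took 14.1% and Plod2 62.8%.

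Serpinh1, the collagen chaperone Hsp47, reached the highest level of the 9. Serpinh1 (chromosome 7, 106493885 to 106501749) had 68.0, 46.1, 26.3 and 73.6 FPKM in WT3, Rescue3.34, KO3.34 and KO2.6 ESCs and 229, 219.8, 146 and 504 at cXENp1. It was higher at cXENp1 than at ESC in all 4 lines, by 3.37-fold in WT3 to 6.85-fold in KO2.6. At cXENp3 it had 60.9 FPKM in WT3 and 282 in Rescue3.34, and 4092 and 2815 in KO3.34 and KO2.6, beside 3473 and 2065 in XEN5 and XENB1. In KO3.34 at cXENp3 only 1 other gene entry of the table had a higher FPKM.

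Lox differed from the other 8 in the rescue line. Lox (chromosome 18, 52676892 to 52689362) was listed at 0 in the ESCs of Rescue3.34, KO3.34 and KO2.6 and had 0.0272 FPKM in WT3 ESCs. At cXENp1 it had 0.831 FPKM in WT3, 0.554 in Rescue3.34, 0.299 in the KO3.34 line and 0.184 in KO2.6, and at cXENp3 2.93, 65.9, 42.0 and 70.6. XEN5 had 59.1 and XENB1 108 FPKM. Rescue3.34 lay between the null lines, so the groups overlapped, and Lox was the only one of the 9 genes for which they did. Both null lines were above both present lines at cXENp3 for 37.6% of 13386 genes and below them for 35.3%, so most genes did not overlap.

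Fibroblast markers were high in the same rescue library. The 12 markers of feeder fibroblasts (Col1a1, Col1a2, Col3a1, Dcn, Lum, Postn, Thy1, Pdgfrb, Prrx1, Twist1, Twist2 and Fap) summed to 1281 FPKM in Rescue3.34 at cXENp3, with none at 0, against 38.1 in WT3 with 2 at 0, 294 and 382 in the null lines and 571 and 663 in the XEN lines. In ESCs the sum was 7.13 to 20.5 FPKM and at cXENp1 21.2 to 77.8. Of the 12, 8 were higher in Rescue3.34 at cXENp3 than in both null lines and both XEN lines, among them Col1a1 at 509 FPKM, Col3a1 at 305 and Dcn at 27.9. Postn and Pdgfrb were above the null lines only, and Twist1 and Twist2 were below both null lines. Of 11 tested, Twist1 (1.86 ± 0.48) and Twist2 (1.48 ± 0.43) were called higher in null than in present lines at cXENp3 and 0 lower. Their part in the level of Lox, and of the other genes, was not tested. Serpinh1 and Leprel1 were also higher in Rescue3.34 than in WT3 at cXENp3, by 4.63-fold and 5.52-fold, and the ratio of these lines was 0.717 to 1.70 for the other 6 genes.

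**Figure D2:**
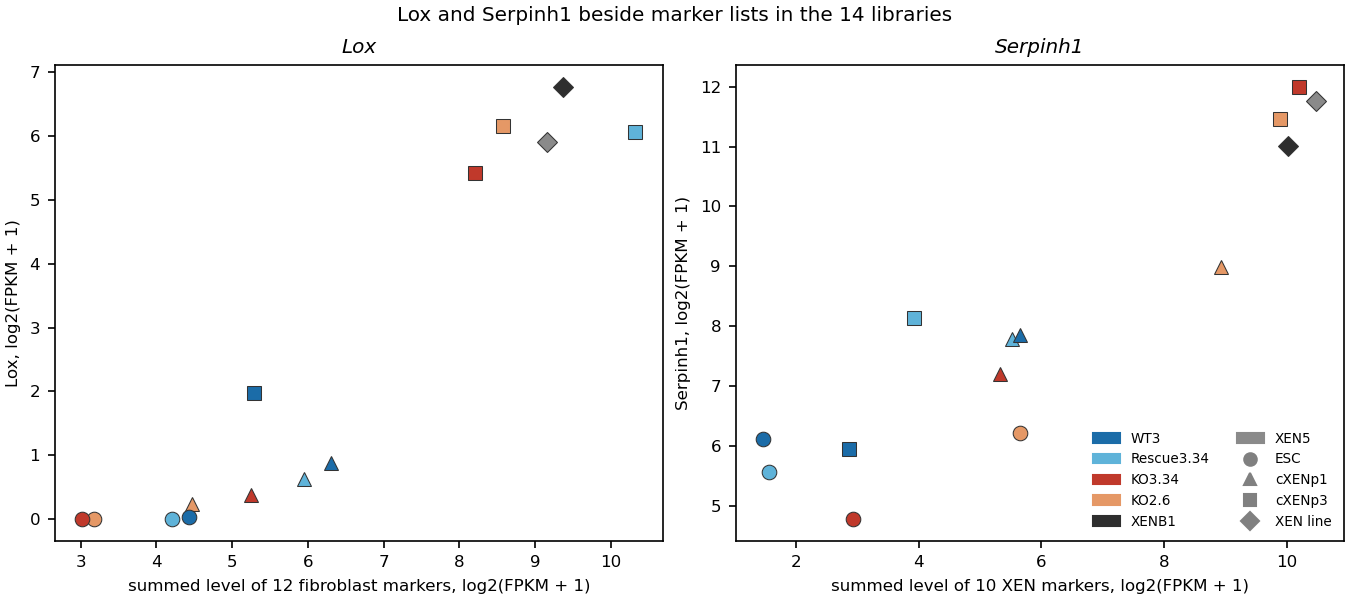
Level of Lox against the summed level of 12 fibroblast markers (left) and of Serpinh1 against the summed level of 10 XEN markers (right), both axes as log2(FPKM + 1). Each point is 1 of the 14 libraries, with colour for the line and shape for the stage. Rescue3.34 at cXENp3 has the highest fibroblast sum, 1281 FPKM, and stands among the null and XEN lines for Lox, while it stands with the present lines for Serpinh1.

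The first comparison asked how established XEN lines differ from ESCs. Genes were tested on log2(FPKM + 1) with limma over all genes that reached 1 FPKM in at least 2 fitted libraries, and a gene was called where its p, adjusted by Benjamini-Hochberg, was under 0.05. With 2 XEN and 4 ESC libraries, 9 of the 9 genes were called higher, where 41.9% of the 12372 tested genes were called in either direction and 22.2% were called higher. Lox and Leprel1 passed the filter only through the XEN lines and so had to differ. The differences in log2 units were 4.80 ± 0.43 (SE) for P4ha1, 5.24 ± 0.37 for P4ha2, 2.97 ± 0.31 for P4hb, 4.76 ± 0.35 for Plod2, 3.84 ± 0.26 for Plod3 and 5.72 ± 0.42 for Serpinh1. Plod1 had the smallest, 2.35 ± 0.26 with a limma adjusted p of 0.000382, the highest p of the 9. Each XEN library was above each ESC library for all 9, which was so for 30.1% of 13386 genes. Libraries of 1 group come from different lines, and nothing states separate cultures of a line, so the p-values measure the spread between these libraries. With the JH or XH prefix added as a covariate the 9 calls were made too, where 32.9% of genes were called. KO2.6 is the only ESC line with the prefix XH, so that fit sets the XEN lines against this 1 ESC library.

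At cXENp1 the changes were smaller and differed between genes. In the fit over the 12 course libraries, blocked by line, 0 of 9 genes were called by limma against ESCs, where 28.5% of genes were called and 5545 of 13191 had an unadjusted p under 0.05. That fit gives all lines the same change per stage, so the parting of null and present lines at cXENp3 counts as spread in it. Its residual SD was 0.972 for Plod1, 1.19 for Plod3 and 1.77 for Serpinh1. In the fit of null against present lines these were 0.244, 0.401 and 0.943. The 0 of 9 therefore cannot decide whether these genes had changed by cXENp1. The largest difference was that of Serpinh1, 2.29 ± 1.00 with an adjusted p of 0.112, then Leprel1 at 1.81 ± 0.76 with 0.102. A fit on the 8 ESC and cXENp1 libraries, chosen after the data were seen, called 4 of the 8 genes it tested, where 45.9% of genes were called. In that fit Serpinh1 had an adjusted p of 0.000109, Leprel1 0.000556, P4hb 0.00468 and P4ha2 0.00739, all higher at cXENp1. Leprel1 passed its filter only through the cXENp1 libraries and so had to differ. All 4 cXENp1 libraries were above all 4 ESC libraries for P4ha2, Plod3, Leprel1, Serpinh1 and Lox, 5 of 9, which was so for 20.5% of 13386 genes. Of these, Lox was under 1 FPKM in all 8 libraries and Leprel1 in the 4 ESC libraries. KO2.6, whose libraries all carry the prefix XH, went from 73.6 to 504 FPKM for Serpinh1, from 7.14 to 52.2 for P4ha1 and from 19.1 to 16.0 for Plod1. The other lines did not share that rise of P4ha1, with ratios to ESCs of 1.01 in WT3, 1.32 in Rescue3.34 and 0.369 in KO3.34.

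The comparison of null with present lines within a stage asked when the lines part. In ESCs, 0 of 9 genes were called by limma, where 1.97% of genes were called and 2762 had an unadjusted p under 0.05. The difference furthest from 0 was that of P4hb, 0.63 ± 0.34 with an adjusted p of 0.33. Without KO3.34 it was 1.02, in a fit that leaves KO2.6 alone in its arm and assumes that this line varies like the other groups. As ESCs, KO2.6 has the prefix XH and both present lines have JH, so prefix, line and Zfp281 cannot be told apart there. At cXENp1, 0 of 9 were called by limma, where 0.485% of genes were called and 1486 had an unadjusted p under 0.05. The differences ran from -0.44 for Lox to 0.88 for P4ha2. The null lines themselves differed more than this at cXENp1: KO2.6 was above KO3.34 by 2.44 log2 units for P4ha1, 2.14 for Plod2, 1.78 for Serpinh1 and 1.30 for Plod3. Without KO3.34, 5 of 9 were called higher (P4ha1, P4ha2, P4hb, Plod2 and Plod3), where 4.97% of genes were called. Without KO2.6, every gene of the 9 but P4ha2 and P4hb had a difference under 0, from -0.65 for Leprel1 to -0.10 for Plod3.

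At cXENp3 the null lines were higher for 8 of the 9 genes by limma, where 41.9% of genes were called in either direction and 22.9% were called higher. P4ha2 differed most, by 5.19 ± 0.42 log2 units with an adjusted p of 6.38e-05, ahead of Serpinh1 at 4.68 ± 0.75 with 0.00134. Leprel1 followed at 3.87 ± 0.42, Plod3 at 3.61 ± 0.35, Plod2 at 3.41 ± 0.54 and P4ha1 at 3.33 ± 0.68. P4hb and Plod1 differed least among the 8, by 2.85 ± 0.34 and 2.76 ± 0.25. Lox, at 1.77 ± 0.95, did not pass, with an adjusted p of 0.16. Without Rescue3.34, Lox was called, at 3.82 with an adjusted p of 0.00448, and without WT3 it had -0.27 with 0.696. Without WT3, 6 of 9 were called, where 8.14% of genes were called. P4ha1 (3.27, adjusted p of 0.0837) and Plod2 (3.07, 0.0547) were lost there with differences close to those above. Each of these fits leaves 1 present line alone in its arm, assumed to vary like the other groups.

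**Figure D3:**
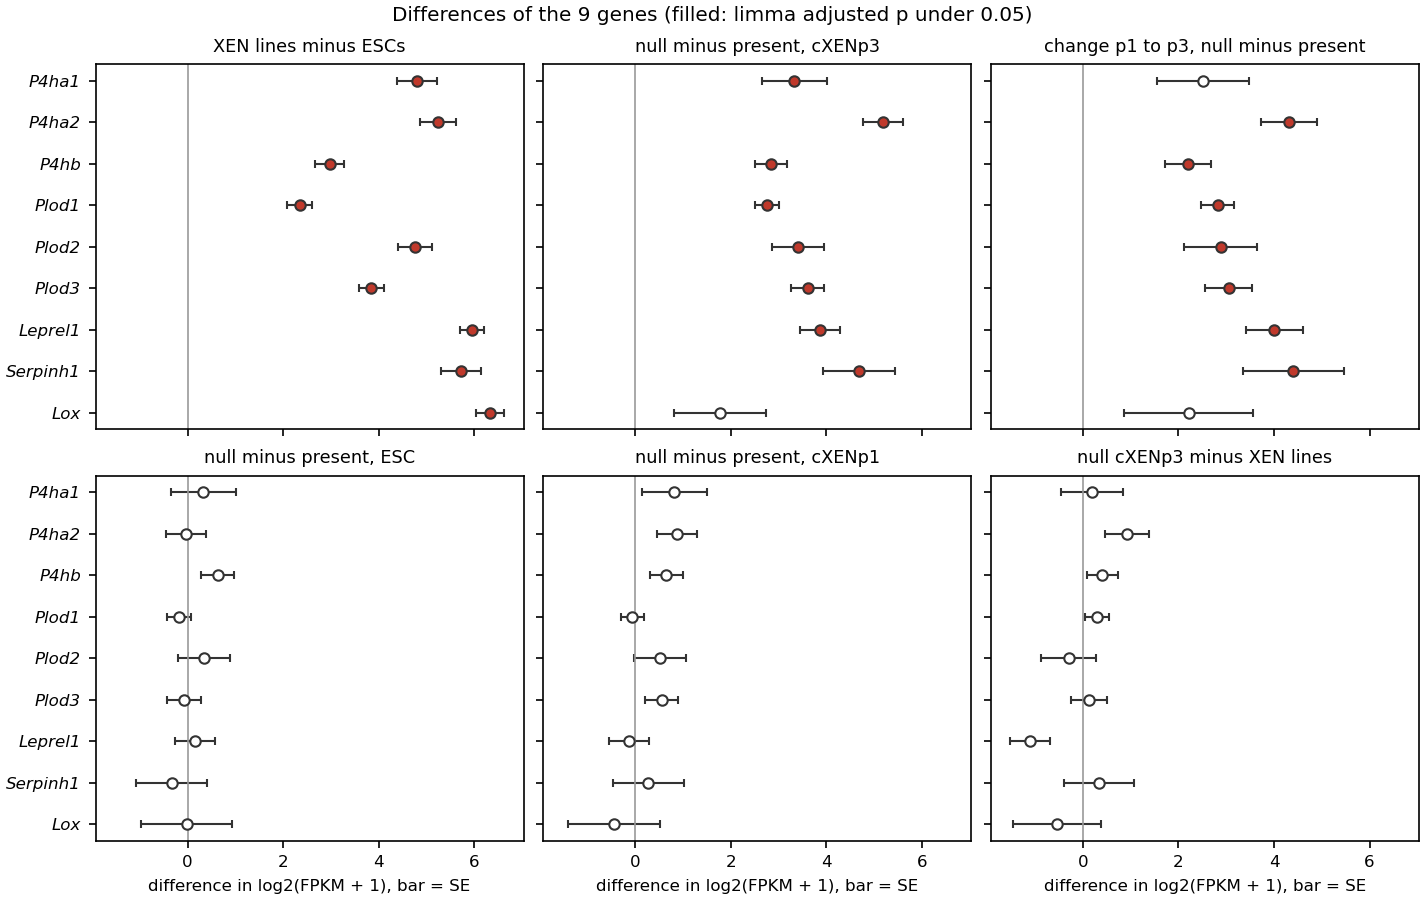
Difference of each gene in log2(FPKM + 1) in 6 comparisons, on a common horizontal axis, with bars for the SE of the limma fit and filled points for an adjusted p under 0.05. All 9 points are filled for XEN lines against ESCs and 8 for null against present lines at cXENp3, where Lox is open, and none are filled at ESC, at cXENp1 or for null lines at cXENp3 against XEN lines.

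Between passage 1 and passage 3 the courses separated. In the null lines, 9 of 9 genes rose from cXENp1 to cXENp3 by limma, where 21.3% of genes were called and 12.5% were called higher. The log2 changes ran from 2.34 for P4hb to 5.48 for Lox. Lox passed the filter only through cXENp3 libraries, so the filter favoured a rise of Lox here and in the present lines. Lox was not called without KO3.34 (adjusted p of 0.0562) or without KO2.6 (0.0797), and Serpinh1 was not without KO3.34 (0.113). In the present lines, 0 of 9 were called by limma, where 10.9% of genes were called and 3786 had an unadjusted p under 0.05. The 2 genes furthest from 0 there were Lox, at 3.27 ± 0.95 with an adjusted p of 0.0555, and P4ha1, at 1.63 ± 0.68 with 0.148. Serpinh1 had -1.90 in WT3 and 0.36 in Rescue3.34 over that interval, so these lines did not share a direction. Without WT3, Lox was called, at 5.43 with an adjusted p of 0.0129, where 0.416% of genes were called. P4ha1 and Plod2 were called without KO2.6 (adjusted p of 0.00257 and 0.0216) and without KO3.34 (0.00294 and 0.0234), where 20.2% and 19.7% of genes were called. The libraries of these comparisons are shared with those at cXENp3.

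The difference between these changes was tested itself. It was positive and called for 7 of 9 genes by limma, where 11.4% of genes were called and 7.19% were called higher. It was 4.41 ± 1.06 for Serpinh1, 4.31 ± 0.59 for P4ha2, 4.0 ± 0.60 for Leprel1, 3.05 ± 0.49 for Plod3, 2.88 ± 0.77 for Plod2, 2.82 ± 0.35 for Plod1 and 2.19 ± 0.48 for P4hb. P4ha1, at 2.51 ± 0.96 with an adjusted p of 0.107, and Lox, at 2.22 ± 1.35 with 0.279, did not pass. Without WT3, 0 of 9 were called, where 0.0385% of genes were called, and the 7 values ran from 2.14 to 3.91. Without Rescue3.34, 3 of 9 were called, where 1.32% of genes were called.

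Null lines at cXENp3 were set against established XEN lines. By limma, 0 of 9 genes were called, where 4.12% of genes were called and 2740 had an unadjusted p under 0.05. Leprel1 was the furthest below the XEN lines, at -1.11 ± 0.41 with an adjusted p of 0.161, and P4ha2 the furthest above, at 0.93 ± 0.46 with 0.282. The other 7 differences lay between -0.54 for Lox and 0.41 for P4hb. The 4 libraries of null cXENp3 and XEN lines lay above all other 10 libraries for 8 of the 9 genes, which was so for 12.8% of 13386 genes.

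Subunit partners and paralogs were examined next. P4ha3, the third alpha subunit, stood at 8.94 and 12.2 FPKM in the XEN lines, far under P4ha1 and P4ha2, and was called higher in XEN lines (3.45 ± 0.24) and in null lines at cXENp3 (2.57 ± 0.54). Against ESCs it passed the filter only through the XEN lines, as Lox and Leprel1 did, and so had to differ there. Of the prolyl 3-hydroxylase complex, Lepre1 (P3h1), its partner Crtap and the peptidyl-prolyl isomerase Ppib were called higher in both comparisons, with 2.68 ± 0.35, 2.25 ± 0.50 and 1.58 ± 0.25 at cXENp3. Leprel2 (P3h3) and the isomerase Fkbp10, which helps telopeptide lysyl hydroxylation, were called higher in XEN lines (2.43 ± 0.38 and 2.36 ± 0.59). Neither passed at cXENp3, where Leprel2 had 0.62 ± 0.53 and Fkbp10 0.56 ± 0.67. Fkbp10 had 60.0 FPKM in Rescue3.34, between the 27.3 of KO3.34 and the 88.2 of KO2.6. Glt25d1, the collagen galactosyltransferase that follows the lysyl hydroxylases, had 1.92 ± 0.29 in XEN lines and 2.87 ± 0.39 at cXENp3, both called.

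Among the Lox paralogs, Loxl2 was the most abundant. It had 209 and 238 FPKM in the XEN lines, 421 and 612 in the null lines at cXENp3, and 25.0 and 100.0 in WT3 and Rescue3.34. Loxl2 was called higher in XEN lines (5.41 ± 0.34) and in null lines at cXENp3 (3.31 ± 0.55), as were Loxl3 (3.98 ± 0.37 and 2.02 ± 0.44) and Loxl4 (1.38 ± 0.28 and 0.84 ± 0.27). Loxl1 was called in XEN lines (2.43 ± 0.36) and had -0.42 ± 0.50 at cXENp3, with 22.5 FPKM in Rescue3.34 against 6.22 and 11 in the null lines. Lox and Loxl1 were thus the 2 enzymes of that family whose groups overlapped at cXENp3 with Rescue3.34 high.

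Lists of the surrounding pathway were counted in the same fits. Of 12 tested genes for collagen modification and folding outside the 9, 11 were called higher in XEN lines and 0 lower, and 9 and 0 in null lines at cXENp3. The largest were Leprel4 (4.30 ± 0.35), P4ha3, which had to differ, and Fkbp7 (2.89 ± 0.46) in XEN lines. At cXENp3 they were Fkbp7 (3.25 ± 0.71), Leprel4 (2.94 ± 0.45) and Glt25d1. Of 11 tested genes for cross-linking and propeptide cleavage, calls were higher for 8 and lower for 2 in XEN lines, and for 5 and 2 at cXENp3. Bmp1, which cleaves the C-propeptide, was called in both (5.11 ± 0.30 and 2.80 ± 0.78), and so was Furin at cXENp3 (2.22 ± 0.33). Pcolce2 (-3.02 ± 0.27 and -1.93 ± 0.29) and Adamts14 (-1.69 ± 0.55 and -1.57 ± 0.32) were the lower ones in both.

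General ER folding and transport genes were higher too, by less. Of 17 general ER folding genes, 15 were called higher in XEN lines and 16 in null lines at cXENp3, with 0 lower in each. Examples at cXENp3 were the disulfide isomerase Pdia5 (3.67 ± 0.30), the co-chaperone Dnajc3 (2.59 ± 0.25) and calreticulin, Calr (2.37 ± 0.43), and in XEN lines Dnajb11 (2.72 ± 0.35), Dnajc3 (2.49 ± 0.48) and Pdia3 (2.41 ± 0.34). Of 13 ER export and retrieval genes, calls in XEN lines were higher for 12 and lower for 1, and at cXENp3 for 11 and 1. They included Creb3l1 (4.91 ± 0.25 and 2.96 ± 0.45) and Creb3l2 (3.27 ± 0.28 and 3.96 ± 0.54), membrane-bound transcription factors of the secretory pathway, the coat component Sec24d in XEN lines (2.56 ± 0.23) and the retrieval receptor Kdelr3 at cXENp3 (3.49 ± 0.50). The lower gene in both was Klhl12 (-1.31 ± 0.23 and -1.21 ± 0.32). The median difference was 4.80 for the 9 genes in XEN lines, 2.39 for collagen modification and folding, 1.74 for general ER folding, 1.39 for ER export and -0.02 for all genes tested. At cXENp3 the medians were 3.41, 2.55, 1.60, 1.71 and 0.01. The 9 genes and the lists were chosen with earlier results of these data known, so the order of these medians is descriptive and was not tested.

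**Figure D4:**
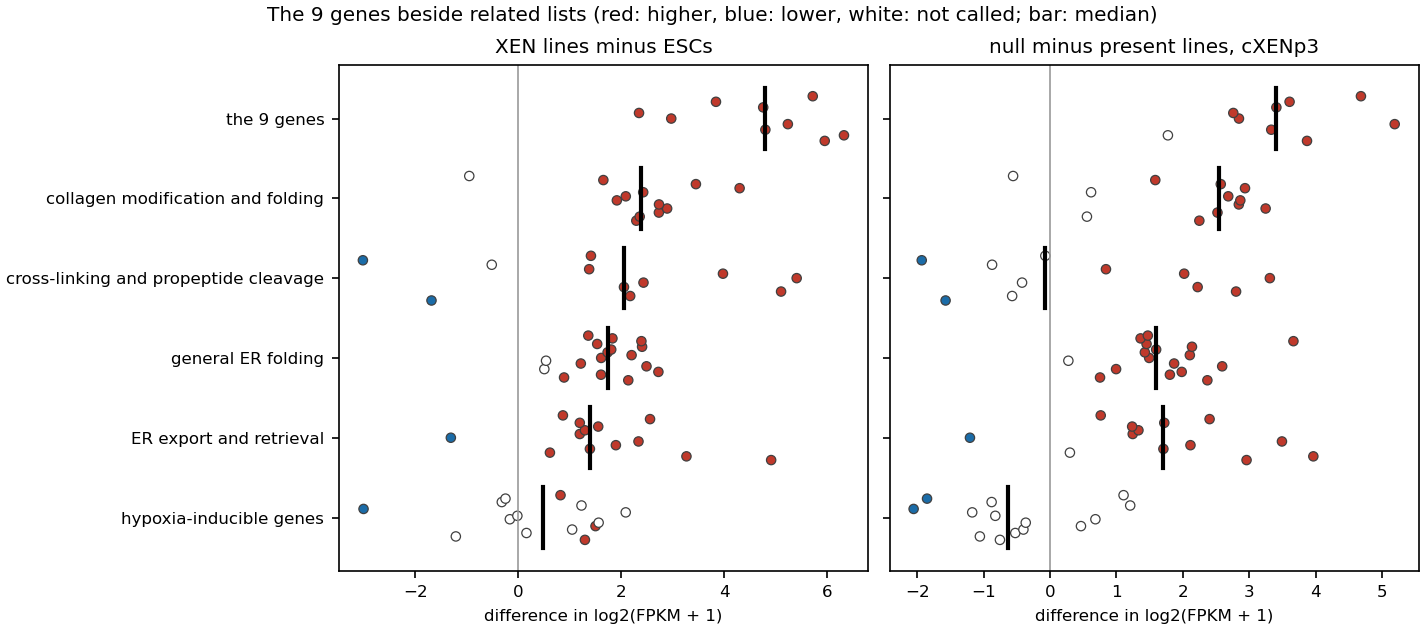
Difference of each tested gene in log2(FPKM + 1) for the 9 genes and 5 related lists, for XEN lines against ESCs (left) and null against present lines at cXENp3 (right). Each point is 1 gene, red for called higher, blue for called lower and white for not called, and the black bar is the list's median. The median of the 9 genes is 4.80 on the left and 3.41 on the right, and that of hypoxia-inducible genes is 0.49 and -0.64.

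P4ha1, P4ha2, Plod2 and Lox are also known as targets of hypoxia-inducible factors, so 15 other hypoxia-inducible genes were counted. Of 14 tested, 3 were called higher in XEN lines (Egln1, 1.50 ± 0.34, Adm, 1.29 ± 0.28, and Vegfa, 0.82 ± 0.27) and 1 lower (Pdk1, -3.01 ± 0.42), a share of higher calls near the 22.2% of all genes. At cXENp3, 0 were called higher in null lines and 2 lower, Pdk1 (-2.05 ± 0.36) and Slc2a1 (-1.85 ± 0.38). In the present lines from cXENp1 to cXENp3, 11 of the 14 rose by limma, where 4.91% of all genes were called higher. Over that interval the present lines had 1.63 for P4ha1, 0.37 for P4ha2, 1.14 for Plod2 and 3.27 for Lox, with none called with every line in the fit. Genes for the supply of ascorbate and copper moved less: 4 of 5 tested were called higher in XEN lines, led by Slc23a1 (1.15 ± 0.20) and Slc23a2 (1.14 ± 0.27), and 1 of 4 at cXENp3, Slc23a2 (0.88 ± 0.28). Slc23a1 did not pass the filter over the 12 course libraries. It was tested against ESCs only through the XEN lines, so the filter favoured a higher call.

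The collagen genes did not follow the enzymes as one group. Of 11 tested, calls in XEN lines were higher for 8 and lower for 3, with 0 higher and 3 lower in null lines at cXENp3. Col1a1 (7.70 ± 0.29), Col1a2 (7.25 ± 0.25) and Col5a2 (5.53 ± 0.27) led in XEN lines. At cXENp3 Col1a1 had 133 and 168 FPKM in the null lines, against 17.5 in WT3 and 509 in Rescue3.34. The 3 lower genes were Col4a1, Col4a2 and Col18a1. Col4a1 was listed at 0 in all 4 libraries of null cXENp3 and XEN lines, beside 772 FPKM in KO2.6 at cXENp1, and Col4a2 was listed at 0 in libraries too, so no fold is given for either. Such zeros in whole groups can be failed estimates. Col18a1, whose values were above 0 in every library, differed by -2.75 ± 0.33 in XEN lines and -2.63 ± 0.33 at cXENp3.

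Across the 14 libraries the 9 genes had similar profiles. Pearson's r of log2(FPKM + 1) over the 36 pairs ran from 0.777 (Plod1 and Lox) to 0.985 (P4ha1 and Plod2), with a median of 0.934, and was at least 0.880 without Lox. The libraries fall into a high and a low set for these genes and share lines, so r describes that split and has no test. Among 12048 genes above 0 in every library, the ones most like Plod3 were Gorasp2 (0.996), a Golgi stacking protein, and Tmed9 (0.992), a cargo receptor of early secretory vesicles. Those most like Serpinh1 were Snai1 (0.986) and Lamb1 (0.984), a laminin chain. Those most like P4hb were Tmco1 (0.989) and Dram1 (0.988), like P4ha2 Nbas (0.986) and P4hb (0.984), like P4ha1 Plod2 and Fkbp1a (0.967), and like Plod2 P4ha1 and Tmed9 (0.978). Plod1 was closest to Mertk (0.984) and Ganab (0.983), a glucosidase subunit of the ER, and Leprel1 to Syne1 (0.984) and Txndc5 (0.982), an ER disulfide isomerase. Lox was closest to Tm4sf1 (0.991) and Ptgs1 (0.989), and to none of the other 8, its highest r with any of them being 0.877.

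The order of abundance shifted as the genes rose. In WT3 ESCs the order by FPKM was P4hb, then Serpinh1, with Leprel1 and Lox last. In both null lines at cXENp3 and both XEN lines Serpinh1 was first and P4hb second, and Lox, Plod1 and Leprel1 were the last 3. Levels of P4ha1, P4ha2 and Plod2 in the XEN lines, from 264 to 897 FPKM, were not ordered alike in XEN5 and XENB1, and neither were those of Leprel1, Plod1 and Lox, from 59.1 to 108.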

How the data were processed

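PolyA RNA-seq libraries (HiSeq4000, paired reads of 150 bp, per the labels' protocols) were represented by 1 table that the authors deposited as FPKM, with 14 columns. STAR 2.5.3, Cufflinks 2.1.1 and build mm9 are named in the submitters' processing notes. The unit is not named in the table and was taken as FPKM from the tool and the values. No counts are held, so depth and detection limits are unknown. Loci were shifted to count from 1.

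The members and lists were chosen with earlier results of these data known. The scale was log2(FPKM + 1), on which changes of low genes come out too small. Genes with at least 1 FPKM in 2 fitted libraries were kept. limma 3.58.1 in R 4.3.3 (lmFit, eBayes with trend) was fitted over all kept genes for 9 comparisons, with calls at a Benjamini-Hochberg adjusted p under 0.05. XEN lines against ESCs used those 6 libraries. Stage against ESC used 12 libraries blocked by line, since a line is the same cell line at every stage. Null against present lines used 6 groups of 2, and null cXENp3 against XEN lines 7 groups of 2, with shared spread. Same-line libraries' deviations from group means had correlations of -0.22 to 0.35.

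Named genes are the 9, their partners and paralogs, up to 3 called genes of each direction per list and comparison with the largest change, and the 2 most correlated genes per member. The fits were tested on simulated data. Alternatives covered pseudocount, filter, normalization, trend, blocks, prefix and leaving out each line.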

Additional observations from a re-analysis of the deposited data

Results flagged for a closer look

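In 3 of 18 groups of 4 libraries (9 genes at ESC and at cXENp1), 1 library stood apart, with a gap to its nearest neighbour over the range above Dixon's critical value. Chance gives about 1 in 20 such groups where they are independent. These groups share libraries and the genes have similar profiles, so 3 of 18 cannot be weighed against that rate. They were Lox in WT3 ESCs, with a ratio of 1 (the other 3 libraries are listed at 0 and WT3 at 0.0272 FPKM), P4ha1 in KO2.6 at cXENp1, with 0.834, and Plod3 in the same library, with 0.907. That library also had 487 FPKM of summed XEN markers against 38.9 to 49.4 in the other 3 lines of the stage.

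The change from cXENp1 to cXENp3 differed between null and present lines, by a test of the difference itself in limma, for 7 genes. Of all genes, 11.4% were called in that test and 7.19% were called higher. The 7 calls depended on single lines, as given above. In log2 units the difference was 4.41 for Serpinh1, 4.31 for P4ha2, 4.0 for Leprel1, 3.05 for Plod3, 2.88 for Plod2, 2.82 for Plod1 and 2.19 for P4hb.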

How the results depend on the processing

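Across 859 values of single members under the alternatives, 789 kept their direction and side of the threshold, 20 lost a call, 22 gained one and 28 changed sign, none of these called either way. Of the 28, 26 came from leaving out 1 line. Plod1 at cXENp1 against ESCs went from -0.06 to 0.42 with the prefix as a term, and P4hb in present lines from cXENp1 to cXENp3 from 0.15 to -0.25 with quantile normalization. Without 1 line, the log2 values that changed sign are given by range. At cXENp1 against ESCs, they ran from -0.16 to 0.000401 for Plod1, -0.32 to 1.03 for P4ha1 and -0.31 to 0.59 for Plod2. For null against present lines in ESCs, they ran from -0.45 to 0.10 for Plod1, -0.48 to 1.13 for P4ha1, -0.51 to 0.46 for P4ha2, -0.20 to 0.052 for Plod3 and -1.06 to 0.39 for Serpinh1. For null against present lines at cXENp1, they ran from -0.13 to 0.014 for Plod1, -0.40 to 2.04 for P4ha1, -0.55 to 1.60 for Plod2, -0.098 to 1.21 for Plod3, -0.61 to 1.16 for Serpinh1 and -0.65 to 0.38 for Leprel1. For null against present lines at cXENp3, they ran from -0.27 to 3.82 for Lox. For present lines from cXENp1 to cXENp3, they ran from -1.90 to 0.36 for Serpinh1, -0.027 to 0.77 for P4ha2 and -0.23 to 0.067 for Plod1. For null cXENp3 against XEN lines, they ran from -0.29 to 0.55 for Plod3, -0.88 to 0.28 for Plod2, -0.051 to 0.43 for P4ha1 and -0.033 to 0.72 for Serpinh1. The cause of these changes was not tested. Members called against ESCs at cXENp1 went from 0 to 1 with a pseudocount of 0.1 (Leprel1) and to 4 on the 8 ESC and cXENp1 libraries. In present lines from cXENp1 to cXENp3 the count went from 0 to 1 with a pseudocount of 0.1 and to 1 with quantile normalization, Lox in both. Leaving out 1 line gave 0 to 1 called for null against present lines in ESCs, 0 to 5 at cXENp1, 0 to 2 for present lines from cXENp1 to cXENp3 and 0 to 8 for the difference of changes, and 7 of 7 tested for XEN lines without XEN5 or XENB1. Lox and Leprel1 were not tested in the fits without XEN5 or XENB1, since they did not reach the filter with 1 XEN library. Quantile normalization moved the median of all genes at cXENp3 by -0.11. With line as replicate block, the counts of members called stayed as in the main fits for null against present lines at cXENp3, null lines from passage 1 to 3 and the difference of changes. Without the block the count at cXENp1 against ESCs stayed too, so the pairing changed none of these. Counts over all genes called moved more. Without 1 line they ran from 2098 to 6235 for XEN lines against ESCs (5181 with every line), 1244 to 3749 for cXENp1 against ESCs (3760), 1 to 1993 for null against present lines in ESCs (260), 4 to 638 at cXENp1 (64) and 1057 to 6150 at cXENp3 (5528). They ran from 1462 to 1936 for null lines from cXENp1 to cXENp3 (2806), 54 to 2594 for present lines (1441), 5 to 2362 for the difference of changes (1510) and 87 to 881 for null cXENp3 against XEN lines (551). Under the other settings the counts ran from 439 (prefix as a term) to 5834 (8 libraries only) for cXENp1 against ESCs, from 21 (prefix as a term) to 281 for null against present lines in ESCs, from 13 to 136 at cXENp1, from 1711 to 3147 for null lines from cXENp1 to cXENp3, from 838 to 1680 for present lines and from 236 to 731 for null cXENp3 against XEN lines. Quantile normalization moved the share of calls that were higher by over 10 percentage points in 2 comparisons, from 75% to 64% for null against present lines at cXENp1 and from 64.1% to 49.9% for null cXENp3 against XEN lines.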
